A study of Mus musculus with 15 samples.

Results

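The proteasome genes described here were 46 mouse genes, covered by 47 probes, of the 16132 features (genes, and probes without a single gene name) on a spotted array. They were chosen by name: every gene whose symbol starts with Psma to Psmg followed by a digit, without the interferon-induced catalytic subunits Psmb8 and Psmb9. The pattern took in 17 genes of the core particle, 19 genes of the regulatory particle with its assembly chaperones, and 8 other regulators. It also took in 2 genes that are no subunits, Psmc3ip and Psme3ip1, which are named after the proteasome proteins they bind. Of the 46 genes, 45 were tested, which took 3 or more arrays with a value in each group.

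The samples were 15 total RNAs of mouse alveolar macrophages, the resident phagocytes of the air spaces of the lung, in 3 groups of 5 arrays. The first group came from mice without integrin beta6 that carried added TGFb1 (labelled b6-/-TGFb+/+Dox), the next from mice without integrin beta6 (b6-/-Dox) and the last from wild type mice (b6+/+Dox). All 3 groups had been given doxycycline, so no sample without it was compared, and wild type mice with TGFb1 were not analysed here. Integrin beta6 pairs with the alphav chain on epithelial cells and activates latent TGFb. The labels used here name neither the promoter nor the cell type that drove TGFb1, nor the age of the mice, and do not say whether the RNAs came from separate animals, so p-values measure only the spread between these arrays. Psmb1, the member not tested, had values on 2 arrays of beta6 null with TGFb1, 4 of beta6 null and 3 of wild type.

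Each array gave 1 log ratio per probe between its sample and a common macrophage reference RNA. Values are given here as log2 ratios of sample over reference after each array was centred on its median. Neither the base nor the direction of the ratio is stated in the sources used here. Base 2 was assumed, and sample over reference was taken as likely, since the reference is channel 1 in the labels. Mmp12, a macrophage elastase held down by TGFb, ran that way too. Mmp12 averaged 2.26 ± 0.61 in beta6 null with TGFb1 (SD, n = 5), 4.57 ± 0.82 in beta6 null (n = 5) and 0.26 ± 0.22 in wild type (n = 4). If the ratio ran the other way, every sign below would turn round, and the tests would not change. A ratio to a reference shows a difference between groups, not how much of a transcript a cell held, so levels of different genes are not set against each other.

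The proteasome is the barrel-shaped protease that degrades most short-lived and damaged proteins that carry ubiquitin chains. Its core particle stacks rings of alpha subunits (Psma genes), which gate the entrance, on rings of beta subunits (Psmb genes), some of which cut. The regulatory particle caps the barrel: a ring of ATPases (Psmc genes) unfolds the substrate, and non-ATPase subunits (Psmd genes) bind ubiquitin chains and remove them. In macrophages the same machine also supplies peptides for MHC class I and turns over signalling proteins. RNA from a bulk sample cannot tell fewer cells of a type from less RNA per cell, and this holds for every difference below.

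Arrays differed in the width of their values. The SD over all probes of an array was 0.845 to 1.40 in beta6 null with TGFb1, 0.916 to 2.0 in beta6 null and 0.841 to 2.01 in wild type. The widest were wild type replicate 2 and beta6 null replicate 1, which also had the fewest values, and results that rest on them are given with and without them. Most of the proteasome genes named below lay under 0, where a wider array also gives a lower value. Values with all arrays scaled to equal spread are therefore given beside the counts.

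No proteasome gene passed an adjusted p of 0.05 in any comparison (limma, Benjamini-Hochberg over all 13273 features tested). In beta6 null with TGFb1 against beta6 null, 37 of the 45 tested genes had a difference above 0, against 56.7% of all features, and 12 were higher and 1 lower at an unadjusted p under 0.05, against 11.1% and 3.85% of all features. The adjusted threshold called 94 features, 0.708% of those tested (0.58% higher). The median difference was 0.62 for the 16 tested core genes, 0.40 for the 19 regulatory genes and 0.56 for the 8 other regulators, against 0.12 for all features. Within the core, the 8 alpha genes had a median difference of 0.81 and all lay above 0, while the 8 beta genes had a median of 0.33 with 5 above 0. With every array scaled to equal spread 7 of the 8 alpha genes lay above 0, and without the 2 widest arrays 6 did. Within the regulatory particle, 4 of 5 ATPases and 12 of 14 non-ATPase genes lay above 0, with medians of 0.86 and 0.37.

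The core and regulatory medians were smaller with all arrays scaled to equal spread. Without the 2 widest arrays the core median was smaller and the regulatory median unchanged. With every array scaled to equal spread, the median difference of beta6 null with TGFb1 against beta6 null was 0.46 for the core genes, 0.34 for the regulatory genes and 0.14 for all features. The number of genes above 0 was then 37 of 45, against 59.3% of all features, and 8 genes were higher at an unadjusted p under 0.05, against 9.80%. Without the 2 widest arrays the medians were 0.51 for the core and 0.40 for the regulatory particle, and 34 of 45 genes lay above 0, against 57.3% of all features. Of the 44 genes measured on 4 or more arrays in each of these groups, 6 had every array of beta6 null with TGFb1 above every array of beta6 null, against 6.82% of all features, and 0 had them all below, against 1.64%. The 6 genes were Psma1, Psma5, Psma6, Psma7, Psmc5 and Psmd6. With equal spread only Psmc5 of the 44 had such groups, against 4.17% of all features, and without the 2 widest arrays there were 8 of 43, against 8.62%.

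**Figure D1:**
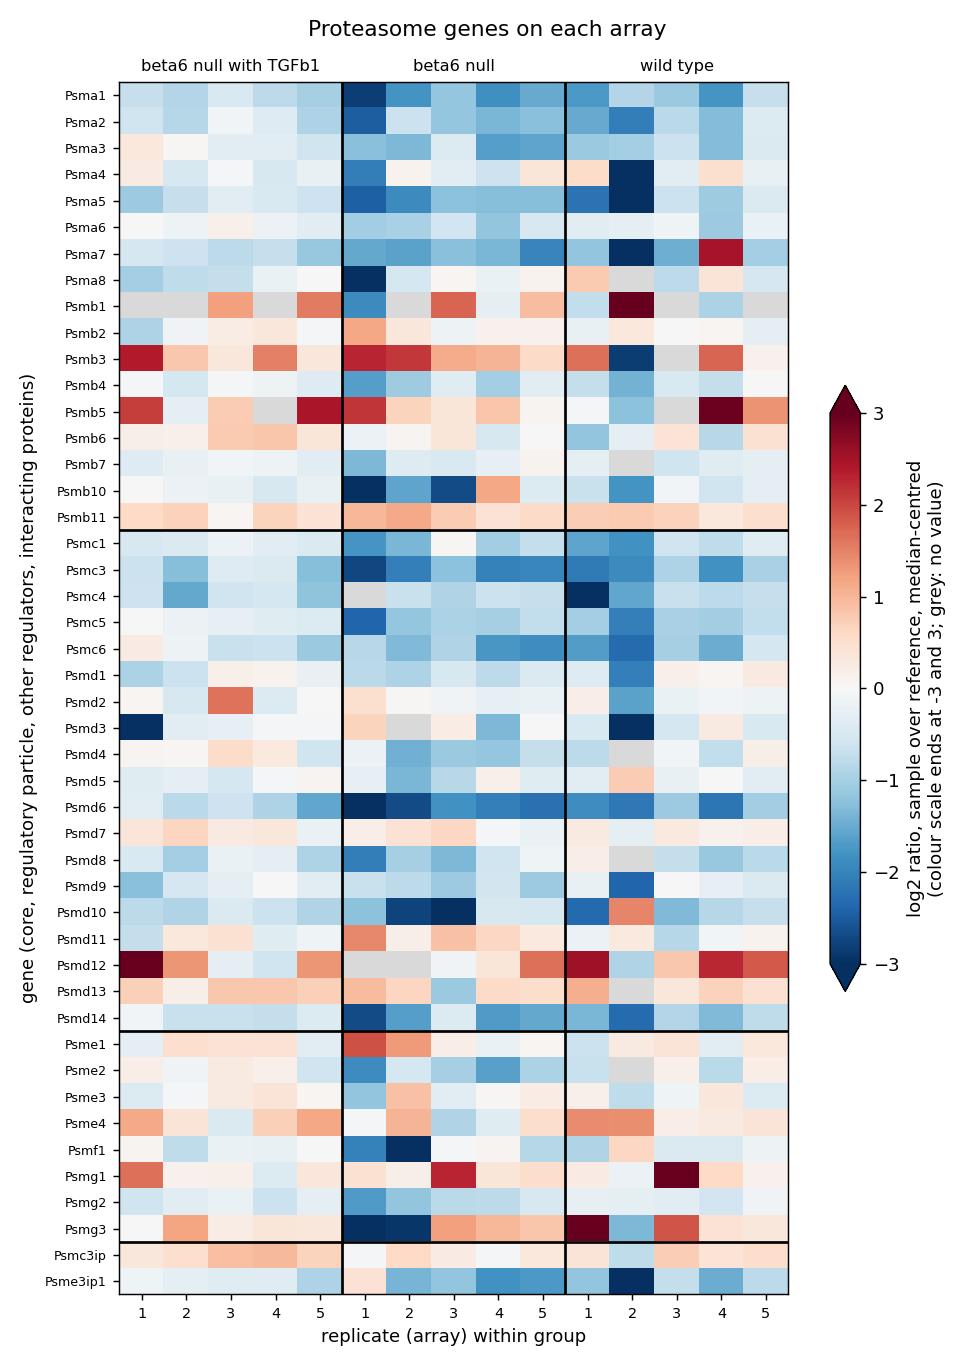
Median-centred log2 ratio to the reference of each proteasome gene (rows, by class) on each of the 15 arrays (columns, by group), with colours ending at -3 and 3 and grey for no value. The columns of beta6 null replicate 1 and wild type replicate 2 hold more strong colours than those of beta6 null with TGFb1.

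The alpha ring genes lay closest to the reference in beta6 null with TGFb1. The median of the 8 alpha genes was -0.55, -0.66, -0.32, -0.43 and -0.61 on its arrays, against -2.27, -1.16, -0.87, -1.33 and -1.27 in beta6 null, and -1.14, -2.08, -0.72, -1.07 and -0.44 in wild type. The first 2 groups did not overlap, and wild type overlapped both. The alpha medians are a summary of chosen genes and carry no test.

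Psma3, an alpha subunit, had the smallest p of the core genes. Its values were 0.32, 0.03, -0.32, -0.35 and -0.60 in beta6 null with TGFb1, -1.26, -1.35, -0.42, -1.65 and -1.59 in beta6 null and -1.10, -1.01, -0.63, -1.31 and -0.45 in wild type. Beta6 null replicate 3 reached the range of beta6 null with TGFb1, and the other arrays of these groups lay apart. The difference was 1.07 (SE 0.30, adjusted p = 0.104) in beta6 null with TGFb1 against beta6 null and 0.72 (SE 0.30, adjusted p = 0.787) against wild type. Between beta6 null and wild type it was -0.35 (SE 0.30, adjusted p = 0.673).

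Psma1, another alpha subunit, had values of -0.70, -0.89, -0.47, -0.79 and -1.0 in beta6 null with TGFb1, -2.82, -1.78, -1.15, -1.85 and -1.52 in beta6 null and -1.73, -0.89, -1.10, -1.77 and -0.69 in wild type. Every array of beta6 null with TGFb1 was above every array of beta6 null, and wild type replicates 2 and 5 lay in the range of beta6 null with TGFb1. The difference was 1.06 (SE 0.33, adjusted p = 0.143) in beta6 null with TGFb1 against beta6 null. It was -0.59 (SE 0.33, adjusted p = 0.503) in beta6 null against wild type.

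Psma6, also in the alpha ring, was -0.02, -0.15, 0.16, -0.17 and -0.33 in beta6 null with TGFb1, -1.05, -0.98, -0.58, -1.18 and -0.49 in beta6 null and -0.32, -0.27, -0.13, -1.08 and -0.20 in wild type. Beta6 null lay below the whole of beta6 null with TGFb1, and wild type replicate 4 stood well below the other wild type arrays. The difference was 0.76 (SE 0.25, adjusted p = 0.172) in beta6 null with TGFb1 against beta6 null and -0.46 (SE 0.25, adjusted p = 0.503) in beta6 null against wild type.

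Psma5 and Psma7 were separated in the same comparison but had far values in wild type. Psma5 was -1.10, -0.70, -0.33, -0.47 and -0.61 in beta6 null with TGFb1, -2.46, -1.90, -1.23, -1.29 and -1.28 in beta6 null and -2.22, -7.61, -0.64, -1.06 and -0.44 in wild type. Wild type replicate 2 alone was far below 0, which widened the standard error, and beta6 null with TGFb1 differed from beta6 null by 0.99 (SE 1.02, adjusted p = 0.696). Psma7, whose place a testis form encoded by Psma8 can take, was -0.50, -0.61, -0.79, -0.68 and -1.13 in beta6 null with TGFb1, -1.53, -1.61, -1.26, -1.38 and -1.98 in beta6 null and -1.18, -3.70, -1.47, 2.48 and -1.01 in wild type. Wild type replicate 2 lay far below the other arrays and replicate 4 above 0. The difference of beta6 null with TGFb1 against beta6 null was 0.81 (SE 0.76, adjusted p = 0.666). Psma2, with -0.59, -0.85, -0.08, -0.39 and -0.91 in beta6 null with TGFb1, -2.47, -0.64, -1.17, -1.37 and -1.26 in beta6 null and -1.52, -2.08, -0.80, -1.30 and -0.41 in wild type, overlapped between all groups. Its difference of beta6 null with TGFb1 against beta6 null was 0.82 (SE 0.37, adjusted p = 0.323).

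The beta ring genes lay on both sides of the reference, with beta6 null means from -1.33 (Psmb10) to 1.42 (Psmb3). Their array medians were 0.08, -0.14, 0.14, 0.35 and 0.15 in beta6 null with TGFb1, 0.41, 0.21, 0.11, 0.28 and 0.09 in beta6 null, and -0.24, -1.24, -0.05, -0.16 and 0.07 in wild type. Beta6 null with TGFb1 overlapped both other groups, and every beta6 null median lay above wild type, with the nearest arrays almost level. These medians rest on differing numbers of genes per array. Over the 5 beta genes with values on all arrays, beta6 null replicate 1 was at -0.17, below wild type replicate 5 at 0.008, so those groups overlapped. Psmb6, the subunit with caspase-like activity, was 0.17, 0.16, 0.79, 0.82 and 0.37 in beta6 null with TGFb1, -0.17, 0.08, 0.37, -0.49 and 0.01 in beta6 null and -1.19, -0.30, 0.40, -0.84 and 0.47 in wild type. All arrays of beta6 null with TGFb1 were above 0, and the other groups lay on both sides of it. Beta6 null with TGFb1 differed by 0.50 (SE 0.34, adjusted p = 0.516) from beta6 null and by 0.76 (SE 0.34, adjusted p = 0.787) from wild type.

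Psmb3, a beta subunit without a catalytic site, was 2.38, 0.80, 0.34, 1.5 and 0.33 in beta6 null with TGFb1, 2.30, 2.13, 1.11, 1.02 and 0.57 in beta6 null and 1.66, -2.86, 1.75 and 0.13 on the 4 wild type arrays with a value. Wild type replicate 2 had a value below 0, and all other arrays with a value were above it. The difference was -0.35 (SE 0.77, adjusted p = 0.877) in beta6 null with TGFb1 against beta6 null and 1.25 (SE 0.81, adjusted p = 0.568) in beta6 null against wild type. Psmb5 (chymotrypsin-like activity) differed by 0.43 (SE 0.80, adjusted p = 0.848) in beta6 null with TGFb1 against beta6 null, and Psmb7 (trypsin-like activity) by 0.23 (SE 0.27, adjusted p = 0.737). Psmb10, which replaces Psmb7 in the immunoproteasome, averaged -0.22 ± 0.16 in beta6 null with TGFb1 and -1.33 ± 1.74 in beta6 null (SD, n = 5 each), a difference of 1.11 (SE 0.64, adjusted p = 0.443). Psmb11, the beta subunit of thymic epithelium, differed by -0.29 (SE 0.23, adjusted p = 0.600).

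**Figure D2:**
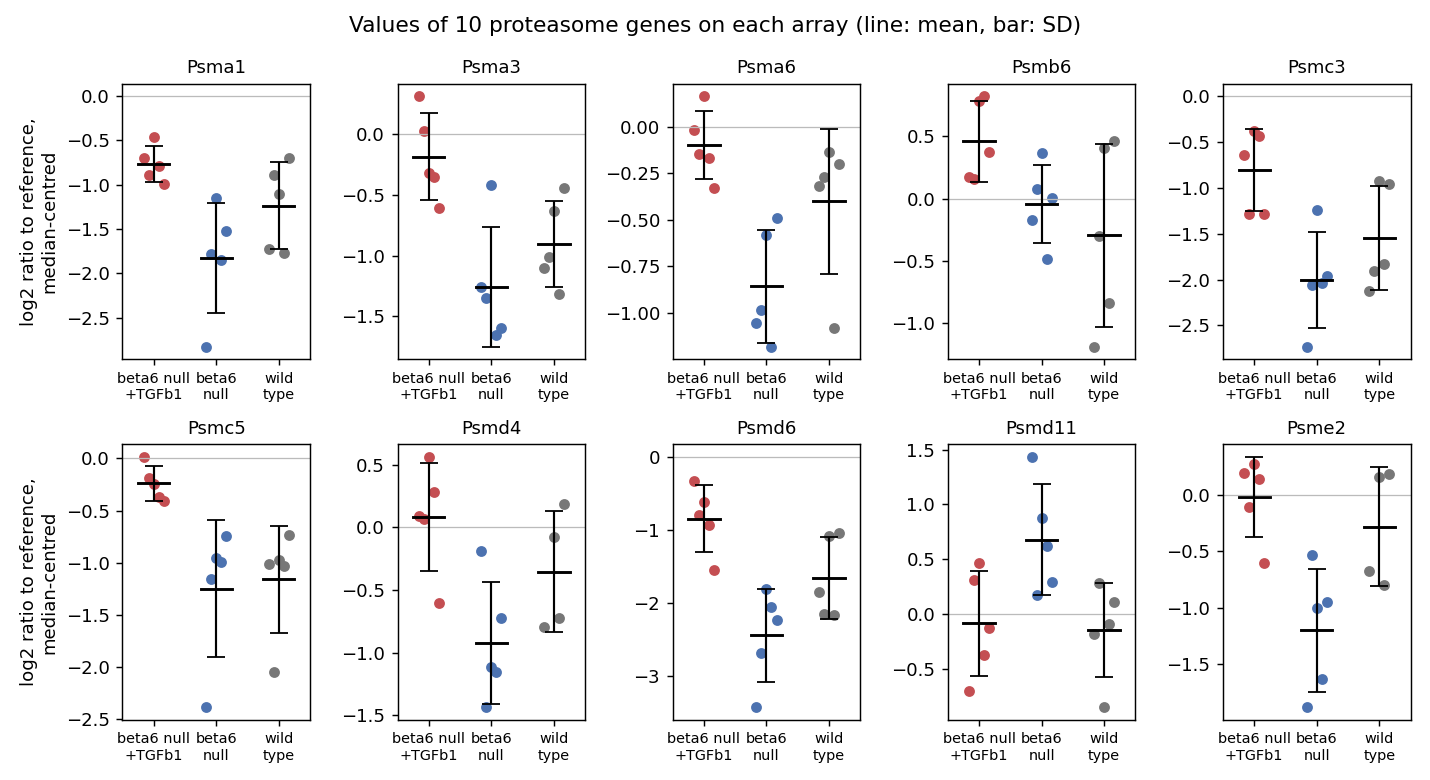
Median-centred log2 ratio to the reference of 10 proteasome genes on each array, in beta6 null with TGFb1 (left), beta6 null (middle) and wild type (right). Points are arrays, lines are means and bars are SDs, and for Psma1, Psma6, Psmc5 and Psmd6 the beta6 null with TGFb1 points lie wholly above those of beta6 null.

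The ATPase genes had a median difference in beta6 null with TGFb1 against beta6 null close to that of the alpha genes, 0.86 against 0.81, and the order turned without the 2 widest arrays, with 0.73 for the ATPases and 0.75 for the alpha genes. The ATPase medians were -0.48, -0.43, -0.38, -0.43 and -1.11 in beta6 null with TGFb1, -2.07, -1.32, -0.91, -1.04 and -0.74 in beta6 null, and -1.68, -1.91, -0.92, -1.04 and -0.68 in wild type. Replicate 5 of beta6 null with TGFb1 lay among the arrays of the other groups. All 5 ATPases had a difference above 0 in beta6 null with TGFb1 against wild type, with a median of 0.91. That median is the difference of Psmc4 (SE 0.73), which was -5.36 on wild type replicate 1 and -1.55 to -0.67 on the other wild type arrays. The ATPase median against wild type was 0.70 without the 2 widest arrays and 0.57 with equal spread, with all 5 above 0 in both.

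Psmc5 was 0.02, -0.19, -0.25, -0.37 and -0.41 in beta6 null with TGFb1, -2.39, -1.16, -0.96, -0.99 and -0.74 in beta6 null and -1.01, -2.05, -0.97, -1.04 and -0.73 in wild type. Beta6 null with TGFb1 lay above every array of both other groups, and beta6 null replicate 1 and wild type replicate 2 stood below their groups. Its mean there exceeded that of beta6 null by 1.01 (SE 0.33, adjusted p = 0.168) and that of wild type by 0.92 (SE 0.33, adjusted p = 0.787). Beta6 null and wild type differed by -0.09 (SE 0.33, adjusted p = 0.942), with a 95% interval of -0.80 to 0.62. Its beta6 null with TGFb1 arrays also lay above all others with equal spread and without the 2 widest arrays. In the second case the difference against beta6 null was 0.73 with an adjusted p of 0.0493, which ran from 0.0493 to 0.309 over 26 alternatives.

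Psmc3 was -0.64, -1.29, -0.38, -0.43 and -1.28 in beta6 null with TGFb1, -2.73, -2.06, -1.24, -2.04 and -1.97 in beta6 null and -2.13, -1.91, -0.92, -1.83 and -0.96 in wild type. Beta6 null replicate 3 reached the lower end of beta6 null with TGFb1. The difference was 1.2 (SE 0.35, adjusted p = 0.116) in beta6 null with TGFb1 against beta6 null and 0.75 (SE 0.35, adjusted p = 0.790) against wild type. Psmc6 was 0.24, -0.15, -0.68, -0.65 and -1.11 in beta6 null with TGFb1, -0.83, -1.32, -0.91, -1.74 and -1.87 in beta6 null and -1.68, -2.31, -0.99, -1.49 and -0.53 in wild type, and the 3 groups overlapped. Its difference of beta6 null with TGFb1 was 0.86 (SE 0.37, adjusted p = 0.292) against beta6 null and 0.93 (SE 0.37, adjusted p = 0.787) against wild type.

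Psmd6, a subunit of the lid that covers the regulatory particle, came closest to the threshold. It was -0.33, -0.80, -0.61, -0.93 and -1.55 in beta6 null with TGFb1, -3.43, -2.69, -1.82, -2.05 and -2.23 in beta6 null and -1.86, -2.15, -1.08, -2.16 and -1.05 in wild type. The lowest array of beta6 null with TGFb1 was above the highest of beta6 null, and wild type overlapped both. The difference of beta6 null with TGFb1 against beta6 null was 1.6 (SE 0.37, adjusted p = 0.0596), a 3.03-fold ratio with a 95% interval of 0.82 to 2.38 on the log2 scale. Over 26 other ways of processing it ran from 0.97 to 1.88, with adjusted p from 0.0244 to 0.338. Against wild type, beta6 null with TGFb1 differed by 0.82 (SE 0.37, adjusted p = 0.787), and beta6 null by -0.78 (SE 0.37, adjusted p = 0.432).

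Psmd4 binds ubiquitin chains. It was 0.09, 0.07, 0.56, 0.28 and -0.60 in beta6 null with TGFb1, -0.19, -1.44, -1.12, -1.15 and -0.72 in beta6 null and -0.79, -0.08, -0.73 and 0.18 on the 4 wild type arrays with a value. In beta6 null with TGFb1, 4 of 5 arrays were above 0 and every beta6 null array was below it, but replicate 5 of beta6 null with TGFb1 fell inside the beta6 null range. The difference was 1.0 (SE 0.32, adjusted p = 0.165) in beta6 null with TGFb1 against beta6 null.

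Psmd14 is the enzyme of the lid that cuts ubiquitin chains off the substrate. It was -0.09, -0.68, -0.66, -0.71 and -0.40 in beta6 null with TGFb1, -2.68, -1.64, -0.41, -1.71 and -1.54 in beta6 null and -1.36, -2.30, -0.89, -1.31 and -0.77 in wild type. Beta6 null with TGFb1 lay above every wild type array, and beta6 null replicate 3 reached its range. For beta6 null with TGFb1 the difference was 1.09 (SE 0.39, adjusted p = 0.201) against beta6 null and 0.82 (SE 0.39, adjusted p = 0.791) against wild type.

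Psmd11, a lid subunit that helps hold the regulatory particle on the core, had the opposite sign to the regulatory genes above. It was -0.71, 0.31, 0.47, -0.37 and -0.13 in beta6 null with TGFb1, 1.44, 0.17, 0.88, 0.62 and 0.29 in beta6 null and -0.18, 0.28, -0.85, -0.09 and 0.11 in wild type. As the average of its probes, every beta6 null array was above 0, and both other groups lay on both sides of it. The second probe was at -0.04 and -0.08 on beta6 null replicates 2 and 5. It had no value on replicate 1 of beta6 null with TGFb1 or on wild type replicate 2. The difference was -0.76 (SE 0.33, adjusted p = 0.290) in beta6 null with TGFb1 against beta6 null and 0.83 (SE 0.33, adjusted p = 0.332) in beta6 null against wild type. Psmd11 was the only gene of the set with 2 probes, which gave differences of -0.76 and -0.64 in beta6 null with TGFb1 against beta6 null. Between beta6 null and wild type these probes gave 0.55 and 1.30, and between beta6 null with TGFb1 and wild type -0.21 and 0.67, so they disagreed in sign there.

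Among the other non-ATPase genes, the scaffolds Psmd1 and Psmd2 differed by 0.38 and 0.17 in beta6 null with TGFb1 against beta6 null. The assembly chaperones Psmd5, Psmd9 and Psmd10 differed by 0.30, 0.36 and 1.06. None of these 5 passed the adjusted threshold. Psmd3 had the lowest difference of the regulatory particle, -1.05 (SE 1.14, adjusted p = 0.716), and its arrays spread widely, with -1.17 ± 2.24 in beta6 null with TGFb1 (SD, n = 5) and -0.12 ± 0.87 in beta6 null (n = 4).

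Of the other regulators, Psme2, a subunit of the interferon-induced activator that opens the core, was 0.20, -0.11, 0.28, 0.15 and -0.60 in beta6 null with TGFb1, -1.89, -0.54, -1.0, -1.63 and -0.95 in beta6 null and -0.68, 0.16, -0.80 and 0.19 on the 4 wild type arrays with a value. Beta6 null replicate 2 lay just inside the range of beta6 null with TGFb1. The difference was 1.18 (SE 0.33, adjusted p = 0.109) in beta6 null with TGFb1 against beta6 null and -0.92 (SE 0.35, adjusted p = 0.318) in beta6 null against wild type. Its partner Psme1 differed by -0.50 (SE 0.40, adjusted p = 0.598) in beta6 null with TGFb1 against beta6 null. Psme3 and Psme4, which form nuclear activators, differed by 0.13 and 0.55 there.

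Psmg1 and Psmg2 encode a pair of chaperones that start the alpha ring. Psmg2 was -0.61, -0.35, -0.20, -0.65 and -0.30 in beta6 null with TGFb1, -1.69, -1.18, -0.81, -0.78 and -0.47 in beta6 null and -0.24, -0.26, -0.32, -0.57 and -0.11 in wild type. Beta6 null held the lowest arrays and overlapped both other groups. The difference was 0.57 (SE 0.25, adjusted p = 0.313) in beta6 null with TGFb1 against beta6 null and -0.69 (SE 0.25, adjusted p = 0.293) in beta6 null against wild type, the smallest p among the proteasome genes in the second comparison. Psmg1 was 1.66, 0.13, 0.15, -0.40 and 0.34 in beta6 null with TGFb1, 0.46, 0.18, 2.28, 0.37 and 0.53 in beta6 null and 0.24, -0.18, 5.19, 0.59 and 0.14 in wild type. Its groups overlapped, and wild type replicate 3 and beta6 null replicate 3 stood far above their groups. The difference of beta6 null with TGFb1 against beta6 null was -0.39 (SE 0.85, adjusted p = 0.875).

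Psmg3, another assembly chaperone, was 0.02, 1.18, 0.23, 0.37 and 0.34 in beta6 null with TGFb1, -3.09, -2.93, 1.24, 0.99 and 0.83 in beta6 null and 3.79, -1.34, 1.89, 0.43 and 0.34 in wild type. Its values were spread over several units in beta6 null and in wild type, and the difference of beta6 null against wild type was -1.61 (SE 0.99, adjusted p = 0.544). Psmf1, an inhibitor of the core in the test tube, was 0.08, -0.77, -0.20, -0.23 and 0.02 in beta6 null with TGFb1, -2.02, -3.44, -0.05, 0.08 and -0.86 in beta6 null and -0.89, 0.62, -0.43, -0.44 and -0.15 in wild type. The groups overlapped, and beta6 null had the lowest values. The difference of beta6 null against wild type was -1.0 (SE 0.56, adjusted p = 0.509). Of the genes named after binding partners, Psme3ip1 differed by 1.11 (SE 0.51, adjusted p = 0.790) and Psmc3ip by 0.41 (SE 0.29, adjusted p = 0.831) in beta6 null with TGFb1 against wild type.

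**Figure D3:**
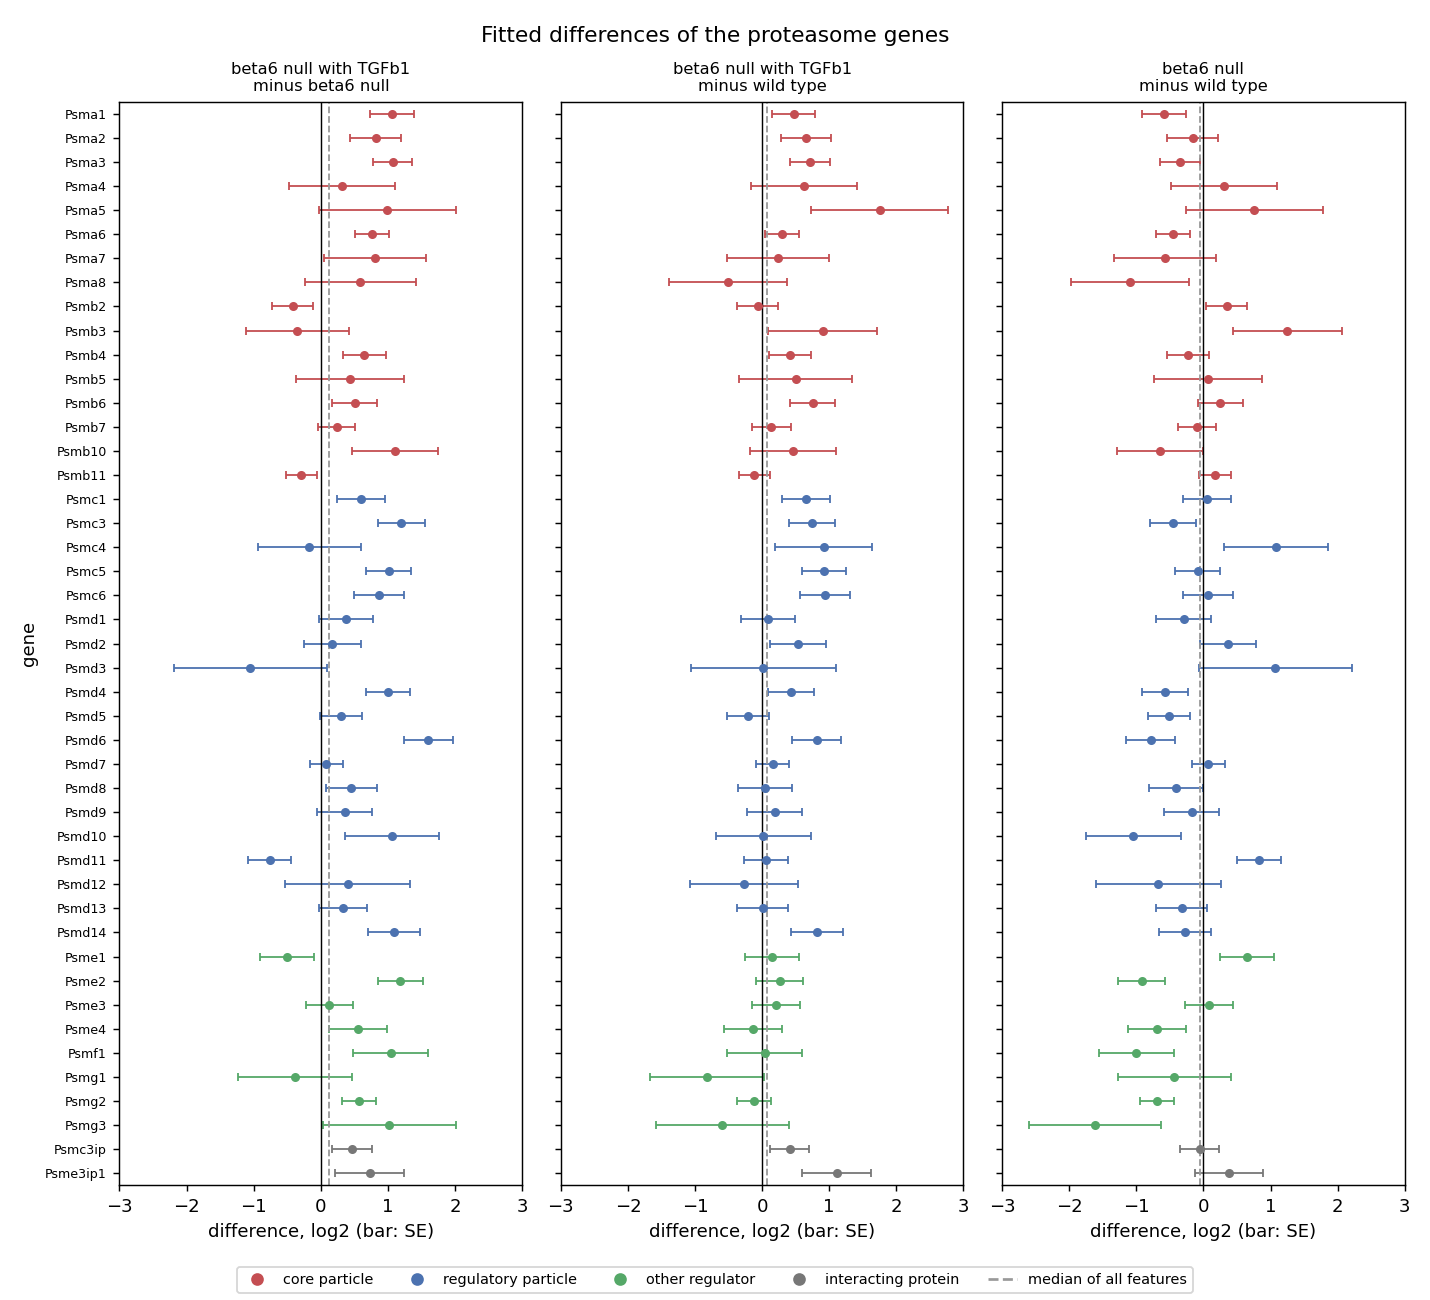
Difference in mean log2 ratio of each tested proteasome gene, with bars of 1 SE, for beta6 null with TGFb1 against beta6 null, beta6 null with TGFb1 against wild type, and beta6 null against wild type. All 8 alpha genes lie above 0 in the first of these comparisons as drawn, and no gene passed an adjusted p of 0.05 in any. Without the 2 widest arrays 6 of the 8 alpha genes lay above 0 there.

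Beta6 null with TGFb1 was also set against wild type. The median difference was 0.46 for the core genes, with 13 of 16 above 0, and 0.18 for the regulatory genes, with 17 of 19 above 0, against a median of 0.07 and 55.4% above 0 for all features. At an unadjusted p under 0.05, 7 genes were higher and 0 lower, against 4.25% and 2.03% of all features. With equal spread 3 of 45 were higher, 6.67%, against 5.98% of all features, which is near the background. The core median was then 0.28, the regulatory median 0.15 with 14 of 19 above 0, and 34 of 45 genes were above 0, against 55.9% of all features. No feature of the array passed the adjusted threshold in this comparison (0 of 13273, 0%), and 833 features, 6.28%, had an unadjusted p under 0.05. Psmc5 and Psmd14 were the genes with every array of beta6 null with TGFb1 above every wild type array, 2 of 45, against 1.73% of all features. Without wild type replicate 2 the core median was 0.16. Without the 2 widest arrays 4 genes were higher at an unadjusted p under 0.05, against 4.91% of all features.

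Between beta6 null and wild type more of the proteasome genes lay below 0 than above, 28 of 45. The core median was -0.13 with 7 of 16 genes above 0, and the regulatory median was -0.27 with 7 of 19 above 0, against -0.05 for all features, of which 46.9% lay above 0 and 53.1% below. The 8 other regulators had the lowest median, -0.69, with 6 below 0 and 2 lower at an unadjusted p under 0.05 (Psmg2 and Psme2). Across the 45 genes, 1 was higher and 3 lower at an unadjusted p under 0.05, against 4.28% and 7.2% of all features, and none had groups without overlap, against 1.87% higher and 2.98% lower. The adjusted threshold called 0.949% of all features and none of these genes. Without beta6 null replicate 1 the core median was 0.04, on the other side of 0. Without the 2 widest arrays 35 of 45 genes lay below 0, among them 8 of 8 alpha genes and 16 of 19 regulatory genes, against 55.3% of all features. With equal spread 27 of 45 lay below 0, against 55.04% of all features, and the medians were -0.07 for the core, -0.08 for the regulatory particle and -0.58 for the other regulators.

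The 3 comparisons share arrays, so their differences are not independent: a low beta6 null array enters both comparisons with beta6 null with opposite sign. The array titles end in 1 or 2, which the labels do not explain. For beta6 null with TGFb1 against beta6 null, the core median was 0.76 among titles ending in 1 (3 against 4 arrays) and 0.30 among those ending in 2 (2 against 1). The regulatory medians were 0.62 and 0.26 in these subsets. For beta6 null with TGFb1 against wild type, the core median was 0.86 among titles ending in 1 (3 against 2 arrays) and 0.10 among those ending in 2 (2 against 3), and the regulatory medians were 1.08 and 0.12. In beta6 null against wild type the core median was 0.20 among titles ending in 1 (4 against 2 arrays) and -0.05 among those ending in 2 (1 against 3), and the regulatory medians were 0.22 and -0.14. The sign of this last comparison differed between the subsets.

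The medians over each class show the same arrays. The core median was -0.04, -0.26, -0.06, -0.20 and -0.28 in beta6 null with TGFb1, -1.44, -0.58, -0.40, -0.55 and -0.16 in beta6 null, and -0.49, -1.32, -0.52, -0.48 and -0.26 in wild type. The regulatory median was -0.36, -0.43, -0.25, -0.37 and -0.40 in beta6 null with TGFb1, -0.82, -1.16, -0.90, -0.66 and -0.53 in beta6 null, and -0.45, -1.86, -0.59, -0.73 and -0.44 in wild type. The regulatory medians of beta6 null with TGFb1 were above those of beta6 null and, by a narrow margin, above wild type, while the core medians overlapped between the groups. These medians rest on differing numbers of genes per array. Over the 13 regulatory genes with values on all arrays, replicate 2 of beta6 null with TGFb1 was at -0.47, below wild type replicate 5 at -0.44, so those groups overlapped.

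**Figure D4:**
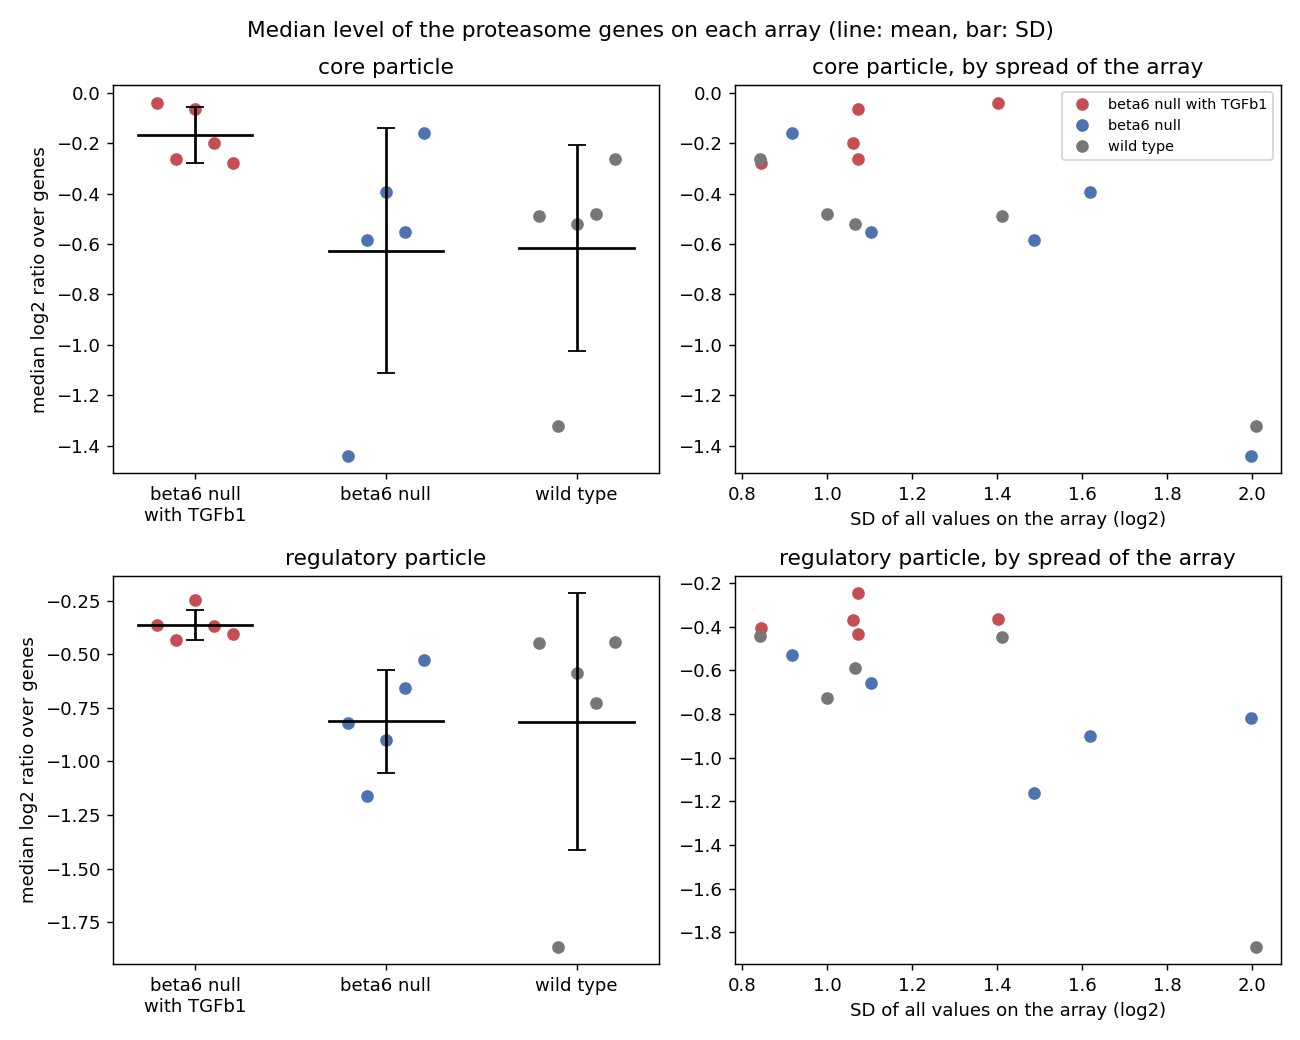
Median log2 ratio of the core and of the regulatory genes on each array, in beta6 null with TGFb1, beta6 null and wild type. The left panels show the mean and SD of the arrays, and the right panels set the medians against the SD of all values on the array. The regulatory medians of beta6 null with TGFb1 lie between -0.43 and -0.25, above the beta6 null medians of -1.16 to -0.53.

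Some markers of the cells in the sample passed the adjusted threshold, which no proteasome gene did. Of all features, 56.7% were above 0 in beta6 null with TGFb1 against beta6 null, and 0.58% passed the adjusted threshold as higher. There 3.85% were lower at an unadjusted p under 0.05. In beta6 null against wild type 46.9% of all features were above 0. Of 9 tested macrophage markers, 9 were above 0 in beta6 null with TGFb1 against beta6 null, with a median difference of 0.52, and 1 passed the adjusted threshold: Pparg, a regulator of alveolar macrophage identity, rose by 1.84 (SE 0.35, adjusted p = 0.0332). The array medians of these markers were -1.27 to -0.34 in beta6 null with TGFb1, -1.82 to -1.54 in beta6 null and -2.35 to -0.58 in wild type. Of 9 tested markers of lung epithelium, Epcam and Krt19 rose by 1.98 and 2.37 in beta6 null with TGFb1 against beta6 null (adjusted p = 0.0442 and 0.0160). The list as a whole had 3 of 9 above 0 and a median of -0.33, and the other 7 did not pass. In beta6 null against wild type, 1 of the 9 passed the adjusted threshold as higher and 2 as lower, against 0.949% of all features. The array medians of the epithelial markers were -1.13 to -0.66 in beta6 null with TGFb1, -1.17 to -0.16 in beta6 null and -0.94 to -0.18 in wild type. Markers of B cells had a median difference of -1.61 in beta6 null with TGFb1 against beta6 null, with 2 of 3 tested lower at an unadjusted p under 0.05, and of 1.39 in beta6 null against wild type, with 3 of 3 above 0. Their array medians were -2.84 to -0.18 in beta6 null with TGFb1, -0.23 to 1.73 in beta6 null and -1.89 to -0.73 in wild type. Markers of neutrophils had a median of -0.70 in beta6 null with TGFb1 against beta6 null, with 5 of 7 below 0 and none past the adjusted threshold. In beta6 null against wild type the neutrophil list had a median of -0.12, with 3 of 7 above 0 and 4 below. Of these 7 only S100a8 passed the adjusted threshold there, with a rise of 2.13 (SE 0.29, adjusted p = 0.00148). Of 4 T and NK cell markers 1 was above 0 in beta6 null with TGFb1 against beta6 null (median -0.48), of 3 fibroblast and endothelial markers 2 (median 0.97), and the 1 erythroid marker differed by 0.21, with none past the threshold. The part of these marker lists in the proteasome differences was not tested. Since the values are ratios, no marker could be read as absent.

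Genes that work with the proteasome were read from lists. For these counts too, 56.7% of all features were above 0 and 11.1% higher at an unadjusted p under 0.05 in beta6 null with TGFb1 against beta6 null, and 46.9% were above 0 in beta6 null against wild type. Of 16 tested associated factors, 15 were above 0 in beta6 null with TGFb1 against beta6 null, with a median difference of 0.32, and none passed the adjusted threshold. The 4 with an unadjusted p under 0.05 were the lid component Sem1 (0.99), the core maturation factor Pomp (0.92), the deubiquitinase Uchl5 (0.86) and the deglycosylase Ngly1 (0.92). Of 12 tested genes of the immunoproteasome and of peptide loading, 10 were above 0 with a median of 0.38, and none passed. Tapbp, which holds MHC class I near the peptide transporter, had a difference of 1.23 (SE 0.38, adjusted p = 0.142), and the chaperone Calr one of -1.0 (SE 0.42, adjusted p = 0.291). The catalytic subunits Psmb8 and Psmb9 differed by 0.43 (SE 0.27, adjusted p = 0.485) and 0.32 (SE 0.36, adjusted p = 0.731). Of 26 tested genes of ubiquitin and its conjugation, 18 were above 0, with a median of 0.29 and none past the threshold. Against wild type, beta6 null had 3 of 16 associated factors, 4 of 12 immunoproteasome and loading genes and 10 of 26 ubiquitin genes above 0.

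The genes varied together across arrays only weakly. Among the 25 core and regulatory genes with values on all 15 arrays, the median pairwise correlation of deviations from the group means was 0.21, against 0.02 over the 6592 features with values on all arrays. Without the 2 widest arrays it was 0.07 over 31 genes, against 0.01 over all features. These points share arrays, whose width differed, and the values are a description. By Pearson correlation over 15 arrays Psma5 was most like the median of the other genes (0.86). Psmb4 (0.84), Psmd1 and Psmc1 (0.82 each) followed, and Psmd5 was least like it (-0.62). By Spearman correlation Psmb4 (0.90), Psmc3 (0.85) and Psmc1 (0.82) came first, and Psma5 was at 0.71. Without the 2 widest arrays the Pearson order was another: Psmc3 and Psma1 came first (0.89 each over 13 arrays). Psma5 was then at 0.75 and Psmd5 at -0.11, and Psma8 was least like the median (-0.55).

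The bases before the start site are shown for 4 genes, those with the smallest p among the genes whose beta6 null with TGFb1 and beta6 null arrays did not overlap. The sequences are from RefSeq, assembly GRCm38.p6, which had windows for 38 of the 46 genes. Each gives the 250 bases before the annotated start of the gene, 5′ to 3′ on the strand of the gene, in lower case. Capitals mark matches, on either strand, to 4 motifs: TGACNNNGC (core of the antioxidant response element), CCAAT (box of NF-Y), CCGGAAG (ETS site) and GGGCGG (Sp1 box). Psma1 lies at chr7:114276117-114276366 on the minus strand, Psma6 at chr12:55383972-55384221 on the plus strand, Psmc5 at chr11:106255935-106256184 on the plus strand and Psmd6 at chr14:14120946-14121195 on the minus strand.
Psma1: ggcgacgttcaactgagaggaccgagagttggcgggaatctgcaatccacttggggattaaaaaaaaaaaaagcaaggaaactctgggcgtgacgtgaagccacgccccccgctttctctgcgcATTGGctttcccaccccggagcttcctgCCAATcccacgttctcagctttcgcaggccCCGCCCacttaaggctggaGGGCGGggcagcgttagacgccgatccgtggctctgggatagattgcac
Psma6: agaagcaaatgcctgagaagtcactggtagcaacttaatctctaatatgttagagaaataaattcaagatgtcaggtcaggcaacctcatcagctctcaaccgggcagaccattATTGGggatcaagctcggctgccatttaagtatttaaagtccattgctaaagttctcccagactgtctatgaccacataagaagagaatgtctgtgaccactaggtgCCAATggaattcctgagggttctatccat
Psmc5: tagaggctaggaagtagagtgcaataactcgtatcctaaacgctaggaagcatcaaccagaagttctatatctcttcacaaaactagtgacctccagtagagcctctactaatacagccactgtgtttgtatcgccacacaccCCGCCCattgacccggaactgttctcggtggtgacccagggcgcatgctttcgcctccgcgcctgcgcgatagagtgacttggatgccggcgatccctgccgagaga
Psmd6: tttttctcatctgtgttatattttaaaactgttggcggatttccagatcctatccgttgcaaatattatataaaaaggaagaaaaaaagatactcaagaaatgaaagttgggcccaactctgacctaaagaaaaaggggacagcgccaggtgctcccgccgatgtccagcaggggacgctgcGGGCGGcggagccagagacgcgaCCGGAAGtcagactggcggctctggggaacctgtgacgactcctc

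Of the printed windows, Psma1 and Psma6 each held 2 CCAAT matches, Psma1 also 2 GGGCGG matches and Psmc5 1, and Psmd6 held 1 CCGGAAG and 1 GGGCGG match. Over the 38 windows, CCAAT was in 13, 34.2%, against 34.5% of the 27025 promoters of all genes. CCGGAAG was in 28.9% of the windows against 7.05% of all promoters, in 0 of 13 core and 7 of 16 regulatory genes. GGGCGG was in 52.6% against 32.9%, and TGACNNNGC in 13.2% against 10.1%. Matches to different motifs overlapped in 2 cases of 72 matches. A match says only that these letters are in the window, and no test was made of it.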

How the data were processed

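Total RNA of 15 samples was measured on 2-colour arrays against a common reference. The deposited values are log2 ratios as read here, 1 per probe and array; how the authors scanned, corrected and normalized them is not given in the labels or headers used here. Array medians lay between -0.0475 and 0.028, and each array was centred on its median again. Of 17225 probes, 30 were left out as control spots by their names, and of 17195 kept, 13972 had a single symbol in the platform's annotation (13 had several, 3210 were not named). Probes of 1 gene were averaged. The 13273 features measured on 3 or more arrays in each group were fitted with 3 group means over all 15 arrays with limma 3.58.1 in R 4.3.3. The Benjamini-Hochberg adjustment ran over all of them, separately for each comparison. A difference is the first group minus the second. The fit was tested on simulated data. Missing values were not imputed. Arrays have no read depth: their number limits the precision.

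The members and lists were chosen with earlier results of these data known. Values on every array are given for genes past the adjusted threshold, for genes with groups that did not overlap on at least 4 arrays of both, and for the 3 genes of each class with the smallest p in each comparison; further genes were named after their values were seen, by role. Replicate numbers only name an array. Alternatives changed the centring, normalization, filter, probe averaging, array weights, blocks and arrays left out.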

Additional observations from a re-analysis of the deposited data

Results flagged for a closer look

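Within groups of 5 arrays, the highest or lowest value was tested for its gap to the nearest other array, relative to the whole range (Dixon's test). Of 69 groups of named genes and list medians, 9 held an array that stood apart, where chance gives about 1 in 20. Psmc5 had a beta6 null replicate 1 at -2.39 (nearest -1.16) and a wild type replicate 2 at -2.05 (nearest -1.04). Psma5 had a wild type replicate 2 at -7.61 (nearest -2.22), and Psma6 a wild type replicate 4 at -1.08 (nearest -0.32). Psmg1 had a beta6 null replicate 3 at 2.28 (nearest 0.53) and a wild type replicate 3 at 5.19 (nearest 0.59). The core median was -1.32 on wild type replicate 2 (nearest -0.52) and the regulatory median -1.86 on the same array (nearest -0.73). The median of the other regulators was -1.44 on beta6 null replicate 1 (nearest -0.20). Wild type replicate 2 and beta6 null replicate 1, which hold 6 of the 9, had the widest values of all arrays.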

How the results depend on the processing

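No paired analysis was possible because the replicate numbers were given in accession order and no label pairs the samples. In beta6 null with TGFb1 against beta6 null, 0 proteasome genes passed the adjusted threshold as reported. There were 2 over features with values on all 15 arrays (Psmd6 and Psma3), 7 with array weights (Psma3, Psmc3, Psmc6, Psmd6, Psmd14, Psme2 and Psme3ip1), 3 without the 2 widest arrays (Psmc5, Psmd6 and Psme3ip1), and 0 to 1 when 1 array was left out. The 1 was Psmd6 without wild type replicate 2 (adjusted p = 0.0350, and 0.0244 to 0.338 over its 26 alternatives). More features of the whole array also passed in that comparison with array weights (648) and without the 2 widest arrays (321 of 12763), against 94 of 13273 as reported. Over all features and alternatives the number that passed there ran from 11 (equal spread) to 648. It ran from 45 to 396 around 126 in beta6 null against wild type, and from 0 to 1 around 0 in beta6 null with TGFb1 against wild type. The cause was not tested.

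The regulatory median of beta6 null with TGFb1 against beta6 null was 0.24 with quantile normalization and 0.60 over features on all 15 arrays, and 0.35 to 0.67 with 1 array left out. Against wild type it was 0.53 over features on all 15 arrays. The core median of beta6 null with TGFb1 against wild type was 0.15 with array weights, 0.16 without the 2 widest arrays and 0.16 to 0.59 with 1 array left out. In beta6 null against wild type the core median was -0.42 to 0.04 with 1 array left out. There the number of regulatory genes above 0 was 7, and 3 without the 2 widest arrays, an alternative count added after seeing the data.

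Of 1548 values of named genes under alternatives, 1495 kept their direction and call, 11 newly passed and 42 changed sign. The only one in beta6 null with TGFb1 against beta6 null was Psmb3 (0.12 with equal spread). In beta6 null against wild type they were Psma2 (0.033 with quantile normalization), Psmc5 (0.19 with quantile normalization, 0.16 with equal spread, 0.00238 with array weights, 0.079 with the title ending as a block), Psma5 (-0.36 with array weights, -0.34 without the 2 widest) and Psmc6 (-0.57 and -0.29). Those in beta6 null with TGFb1 against wild type were Psma7 (-0.30, -0.29, -0.77 and -0.45 with quantile normalization, equal spread, array weights and without the 2 widest arrays), Psmb3 (-0.059 with array weights, -0.11 without the 2 widest), Psmd11 (-0.030 with the block) and Psmf1 (-0.019 without the 2 arrays numbered apart). The rest arose by leaving out 1 array. With each array left out in turn, beta6 null against wild type ran from -0.38 to 0.11 for Psma2, -0.54 to 1.25 for Psma5, -1.26 to 0.29 for Psma7, -0.31 to 0.20 for Psmc5 and -0.16 to 0.29 for Psmc6. There Psmd14 reached 0.0019 and Psmg1 ran from -0.81 to 0.57. In beta6 null with TGFb1 against wild type the ranges were -0.45 to 1.10 for Psma7, -0.11 to 1.43 for Psmb3, -0.12 to 0.22 for Psmd11, -0.12 to 0.26 for Psmf1, -1.16 to 0.18 for Psmg1 and -1.18 to 0.098 for Psmg3.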
